A study of Mus musculus with 24 samples.

Results

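The genes described here are those of the cytosolic ribosomal proteins, taken as every array probe that is not a control and whose gene name is Rpl or Rps followed by an optional p, digits and at most the letters a, l or x. The rule found 78 of 27962 distinct gene names, read by 129 of the 41174 probes on the array, with 47 of the large subunit (Rpl) and 31 of the small subunit (Rps). Of these genes 41 had 1 probe and 37 had more, and the probe with the highest mean intensity stands for its gene unless another is named. The rule used names and brightness and none of the differences reported below.

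The mice were C57BL/6 females, killed at 12 weeks of age, and every dam had eaten a high-fat diet with little selenium and folate from 7 days before mating through gestation and lactation. After weaning, at about 28 days of age, 6 offspring stayed on that diet (HF-low-low) and 6 were given a high-fat diet sufficient in both (HF-low-suf), so that all 4 groups share the high-fat feed and the maternal diet. RNA from whole colon and whole liver of each of the 12 mice was labelled with Cy3 and hybridised on its own array against one Cy5 reference, a pool of colon and liver RNA from the same mice, which gave 24 two-colour arrays and 6 per group. The dyes were not swapped, and each value below is the log2 ratio of sample (Cy3) over reference (Cy5). A liver minus colon difference above 0 therefore means more of the transcript in liver, relative to the other transcripts on the array. The labels tie a colon and a liver to 1 mouse but do not give litters.

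Ribosomal proteins are assembled with ribosomal RNA into the small subunit, which decodes the mRNA, and the large subunit, which joins amino acids. Their mRNAs are among the most abundant in most cells and commonly begin with a terminal oligopyrimidine tract, a C followed by a run of pyrimidines, through which mTOR signalling and the RNA-binding protein LARP1 control their translation. A few genes of the family have paralogs whose expression is restricted to certain tissues or states, such as Rpl3l, a striated muscle form of Rpl3.

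Some probes that carry the results, 60-mers of the array design, are printed 5′ to 3′ in lower case, with nothing marked. They are those of Rps12 and Rplp0 and those on which the comparisons of paralogs with their parent genes rest. The Rps27 probe, also used in these comparisons, is not printed.
Rps12: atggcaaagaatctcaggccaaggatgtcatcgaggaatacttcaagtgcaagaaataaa
Rplp0: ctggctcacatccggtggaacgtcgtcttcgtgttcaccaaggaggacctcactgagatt
Rps27l: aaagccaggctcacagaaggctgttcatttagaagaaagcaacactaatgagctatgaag
Rpl3: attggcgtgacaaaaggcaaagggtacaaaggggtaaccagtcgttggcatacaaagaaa
Rpl3l: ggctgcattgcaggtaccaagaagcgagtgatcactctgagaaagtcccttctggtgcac
Rpl36a: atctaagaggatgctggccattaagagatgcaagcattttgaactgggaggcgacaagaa
Rpl36al: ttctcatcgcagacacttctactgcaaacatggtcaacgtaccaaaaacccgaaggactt

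In the array files, which use build mm7, the Rps12 probe lies on the minus strand at chr10:23538288-23538347, the Rps27l probe on the plus strand at chr9:66979145-66980835, a span that includes an intron, and the Rpl3l probe on the plus strand at chr17:22917799-22918067. The Rpl36a probe shown lies on the plus strand at chrX:129306720-129306779 and the Rpl36al probe on the minus strand at chr12:67124603-67124662. Whether a paralog's probe also binds the transcript of its parent gene was not tested. Of the 77 genes whose probe has a position, 76 lie on the chromosome that RefSeq (GRCm38.p6) gives, and they are spread over 19 chromosomes. The exception is Rplp0, whose probe the files place at chr8:101459316-101459375 while RefSeq has the gene on chromosome 5, so that this probe may read a copy of the gene. Ribosomal protein genes have many near-identical processed copies in the genome, and signals of such copies cannot be told apart here.

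RefSeq promoter sequences were found for 57 of the 78 genes (68 entries, 250 bases before to 50 bases after the annotated start). Below are 30 bases around the start, 10 before and 20 from the start. First come 8 of the 13 genes where the start is a C with at least 4 pyrimidines after it, printed in capitals. Then come the paralogs Rps27l, Rpl36al and Rpl3l, whose starts lack such a run. The other genes with such a run are Rpl14, Rpl38, Rps15a, Rps18 and Rps21. Rpl35a is shown at 1 of its 3 annotated starts, and the others lack the run. Rps27l and Rpl3l each have a further annotated start that is not shown and also lacks it. The run is likewise absent at the annotated starts of Rps12, Rplp0, Rps4x and Rps24, which were lower in liver, so its absence is not particular to the paralogs.
Rpl15: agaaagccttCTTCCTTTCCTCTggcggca
Rpl28: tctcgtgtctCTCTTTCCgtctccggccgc
Rpl35: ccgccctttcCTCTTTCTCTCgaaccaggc
Rpl35a: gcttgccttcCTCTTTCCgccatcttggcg
Rplp2: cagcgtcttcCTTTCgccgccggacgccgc
Rps6: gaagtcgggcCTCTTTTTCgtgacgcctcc
Rps10: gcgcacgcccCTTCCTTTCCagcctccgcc
Rps27: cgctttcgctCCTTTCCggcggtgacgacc
Rps27l: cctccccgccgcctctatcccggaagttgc
Rpl36al: ccgtcgctcaggttcagttccgacttccgc
Rpl3l: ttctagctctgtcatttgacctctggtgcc

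These windows are, in GRCm38.p6, chr14:18270967-18270996 (minus strand) for Rpl15, chr7:4792955-4792984 (plus) for Rpl28, chr2:39005112-39005141 (minus) for Rpl35 and chr16:33056472-33056501 (plus) for Rpl35a. Those of Rplp2, Rps6, Rps10 and Rps27 are chr7:141447641-141447670 (plus), chr4:86857348-86857377 (minus), chr17:27635225-27635254 (minus) and chr3:90213629-90213658 (minus). Those of Rps27l, Rpl36al and Rpl3l are chr9:66946076-66946105 (plus), chr12:69184048-69184077 (minus) and chr17:24727816-24727845 (plus). A C with at least 4 pyrimidines after it stood exactly at the annotated start in 13 of the 68 promoters of the family (19.1%) and in 2.51% of all 32851 promoters in the table. The letters CTTTCC or, on the other strand, GGAAAG were found in 50% of the family's promoters against 26.6% of all, and can overlap the run at the start. The letters CCGGAAG or CTTCCGG, the core of the site that ETS factors such as GABP bind, were found in 33.8% against 8.86%. A start annotated a few bases away hides the run, and these matches describe letters in the window, not binding.

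The tissues carried their own markers: 12 of 12 hepatocyte genes were higher and 12 of 12 colon epithelial genes lower in liver than in colon. Of the 78 ribosomal protein genes 77 were well above background in Cy3 on all 24 arrays, and no spot of the family was saturated on any array. The exception, Rpl3l, was above background on 11 of 24 arrays. Across the 24 arrays the Cy3 signal had a median of 3.77 to 7.22 times the local background. The Cy5 reference was brighter on 2 arrays, colon HF-low-suf replicate 5 and liver HF-low-suf replicate 4, than on the others, at 18.2 and 12.7 times the background against 5.43 to 7.62. Without these 2 arrays 72 ribosomal protein genes were lower and 2 higher in liver, against 73 and 2 with them. Between the diets, no gene of the family was called in either tissue without them. On liver HF-low-suf replicate 4, 8.75% of spots were flagged as outliers, against 0.27% to 0.77% on the other arrays. In tissue RNA, fewer cells that express a gene and less RNA per cell cannot be told apart.

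Ribosomal protein transcripts were lower in liver than in colon as a family. Of the 78 genes, 73 were lower in liver at an adjusted p below 0.05, or 93.6%, where 19% of all 41174 probes were lower and 38.3% differed in either direction, and the median of the family was a log2 difference of -0.88, a factor of 1.84, against 0.02 for all probes. Only 2 genes, Rps27l and Rpl3l, were higher in liver, where 19.4% of all probes were, and 3 did not pass the test. The fall was above 1.5-fold for 62 genes, as it was for 12.2% of all probes, and above 2-fold for 23 genes, as for 6.7% of all probes. Of all probes at least as bright as the dimmest gene of the family 39.4% were lower in liver. Of the 1226 probes of other genes as bright as the brightest 9 in 10 of the family 38.8% were lower, with a median of 0.08.

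The median of the family was between -0.04 and 0.48 on the 12 colon arrays, with a median of 0.37, and between -0.74 and -0.34 on the 12 liver arrays, with a median of -0.50. Every liver array lay below every colon array. Within a mouse, 67 to 76 of the 78 genes were lower in its liver than in its colon, and the median difference of the family was between -1.13 and -0.62 in the 12 mice. For 46 genes, or 59.0%, all 12 livers were below all 12 colons, which held for 6.49% of all probes. No gene of the family had all 12 livers above all 12 colons, which held for 5.97% of all probes.

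**Figure D1:**
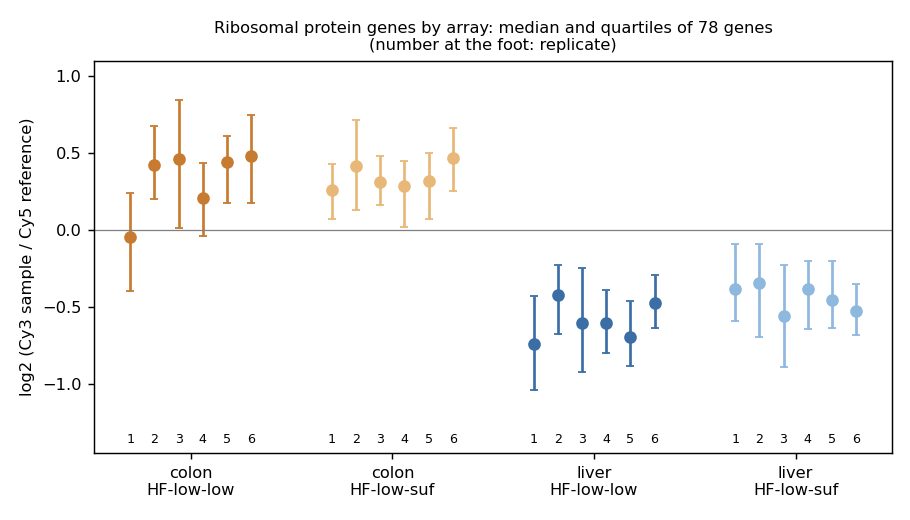
Median (point) and quartiles (bars) of the log2 ratio of Cy3 sample to Cy5 reference over the 78 ribosomal protein genes on each of the 24 arrays, by group, with the replicate number at the foot. The 12 liver arrays lie between -0.74 and -0.34 and the 12 colon arrays between -0.04 and 0.48, with colon HF-low-low replicate 1 the lowest of the colons.

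Colon HF-low-low replicate 1 stood apart from the other colons. It was the lowest of its group for 48 of the 78 genes (61.5%), against 20.8% of all probes. Without that mouse 74 genes were lower and 2 higher in liver, with a median of -0.89.

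Brighter genes tended to have the more negative differences. Over the 78 genes the tissue difference and the mean log2 intensity had a Pearson correlation of -0.57 and a Spearman correlation of -0.56, whose points share the arrays, while the correlation with the GC content of the probe was 0.15 (Pearson) and 0.06 (Spearman). Bright spots were read at a second, lower scanner gain and scaled up: this applied to 67.9% to 91.0% of the family's probes in Cy3 on the colon arrays and to 19.2% to 64.1% on the liver arrays, and in Cy5 to 87.2% to 92.3% in both tissues. Of the 7 genes whose probe was never scaled up in Cy3, 5 were lower in liver (Rpl10a, Rpl14, Rpl27a, Rpl31 and Rps15), and the median of the 7 was -0.41. The other 2 of the 7 are Rpl21 and Rpl3l.

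The scale of the values changed the size of the difference and not its direction. With the Cy3 signal alone, scaled to the 75th percentile of each array, 59 genes were lower and 3 higher in liver and the median of the family was -0.59, where the median of all probes was itself 0.17, and with the signals processed by the scanner software all probes had a median of -0.19 and the family one of -0.88. With each array centred on its median ratio the family had a median of -1.06.

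The stalk proteins fell furthest as a group. Rplp0, Rplp1 and Rplp2 form the flexible stalk of the large subunit that recruits elongation factors. Rplp0 ranged from 0.22 to 1.01 in colon (median 0.62) and from -1.32 to -0.39 in liver (median -0.65), with no overlap, and differed by -1.35 (SE 0.11, adjusted p = 9.2e-11). Rplp1 ranged from -0.33 to 0.53 in colon (median 0.03) and from -1.58 to -0.80 in liver (median -1.21), with no overlap, and differed by -1.33 (SE 0.11, adjusted p = 3.5e-11).
Rplp2 ranged from -0.04 to 0.74 in colon (median 0.38) and from -1.31 to -0.45 in liver (median -0.89) and differed by -1.24 (SE 0.10, adjusted p = 2.77e-11). All livers were below all colons for each of these genes. Each was lower in the liver of 12 of 12 mice (exact sign-flip permutation test, two-sided, p = 0.000488, the smallest that 12 mice can give). So were 61 of the 78 genes of the family, these included. Arbp, an older name of Rplp0 under which the array holds a separate probe outside the naming rule, differed by -1.74 (SE 0.10, adjusted p = 7.26e-14), the same direction as the probe placed on chromosome 8.

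All 30 proteins of the small subunit other than Rps27l were lower in liver, with a median of -0.93 and differences from -1.54 to -0.51, and 11 of them fell more than 2-fold. Rps12, a protein of the small subunit's head, had the most negative difference of the family: colon ranged from -0.91 to 1.53 (median 0.16) and liver from -1.62 to -1.01 (median -1.28), a difference of -1.54 (SE 0.16, adjusted p = 7.55e-09). All 12 livers were below all 12 colons, and the colons spread far more than the livers. Rps4x, the X-linked form of the small subunit protein S4, ranged from 0.33 to 0.76 in colon (median 0.52) and from -1.07 to -0.49 in liver (median -0.75) and differed by -1.28 (SE 0.07, adjusted p = 5.66e-14). It was among the tightest of the family within groups, but the mean over its probes, which brings in a dim one, gave -0.38 (adjusted p = 0.164).
Rps20 differed by -1.33 (SE 0.11, adjusted p = 8.17e-11), with colons from -0.14 to 0.99 and livers from -1.41 to -0.55. Rps24 differed by -1.26 (SE 0.11), with colons from -0.03 to 1.20 and livers from -1.05 to -0.13, and Rps29 by -1.24 (SE 0.12), with colons from 0.11 to 1.51 and livers from -1.11 to -0.09. For Rps20, Rps24 and Rps29 too all livers were below all colons. With the mean over all probes of a gene, dim ones included, the differences were -0.73 for Rps12, -0.49 for Rps20 and -0.51 for Rps24, and Rps12 was then at the median of the family. Rps14 and Rps3a, which are named below for the diets, were lower in liver by differences of -1.19 (SE 0.12) and -0.97 (SE 0.11).

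Of the 42 proteins of the large subunit outside the stalk and the paralogs, 40 were lower in liver, with a median of -0.82, and 9 fell more than 2-fold. The most negative difference among them was -1.19, that of Rpl12, which binds at the base of the stalk. The large subunit also held the genes whose main probes moved least. Rpl36a (-0.35, SE 0.08, adjusted p = 0.000753), Rpl27a (-0.35, SE 0.10, adjusted p = 0.00441), Rpl10 (-0.37, SE 0.12, adjusted p = 0.0188) and Rpl13a (-0.40, SE 0.15, adjusted p = 0.0346) were the least negative of those that passed, although the 2 other probes of Rpl36a gave -1.01 and -1.02.
Rpl10 joins the subunit last and is needed for its activation, and Rpl13a is known for repressing translation outside the ribosome. Rpl13a ranged from -1.21 to 0.68 in colon (median 0.43) and from -0.74 to 0.23 in liver (median -0.03), so that the tissues overlapped, and Rpl10 ranged from -0.38 to 0.81 (median 0.22) and from -0.94 to 0.17 (median -0.04). Both were lower in the liver of 9 of 12 mice. With Cy3 alone none of these 4 genes passed (adjusted p 0.357 to 0.874). Rpl10 did not pass on either scan day alone (adjusted p = 0.0987 and 0.2), Rpl13a and Rpl27a did not on the first (0.477 and 0.261) and Rpl36a did not on the second (0.0696). Rpl27a was at -0.097 with the mean over its probes (adjusted p = 0.45), and Rpl13a did not pass without the mouse as a block (adjusted p = 0.0609). The call of Rpl13a was lost without HF-low-low replicate 3, 4, 5 or 6 and without HF-low-suf replicate 2, 3, 5 or 6 (adjusted p 0.0507 to 0.109), and that of Rpl10 without HF-low-suf replicate 3 (adjusted p = 0.0531).

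Rpl24 and Rpl21 were the 2 large subunit genes that did not pass. Rpl24, at the interface of the subunits, ranged from -0.71 to 0.98 in colon (median 0.48) and from -0.17 to 0.57 in liver (median 0.30), and its difference of -0.25 (SE 0.14) had an adjusted p of 0.199. Its second probe gave -0.31 (SE 0.13, adjusted p = 0.0669). Without HF-low-low replicate 1, whose colon was the lowest for this gene, the difference was -0.34 and passed (adjusted p = 0.02). With median centring Rpl24 was at -0.57 and passed (adjusted p = 0.00884), and with Cy3 alone it was at 0.0019 and did not.
Rpl21 gave no usable comparison at its brightest probe. That probe ranged from -2.13 to 1.29 in colon (median -0.25) and from -2.57 to 1.5002 in liver (median 0.50), with a spread within groups (SD 1.26) above that of every other gene of the family, whose median SD was 0.27, and a difference of 0.22 (SE 0.41, adjusted p = 0.746). It is also the family's richest in G and C, at 75%, where the median probe has 45%. The other Rpl21 probe, above background on 16 of 24 arrays, was lower in liver by a difference of -1.02 (SE 0.11, adjusted p = 5.91e-09).

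**Figure D2:**
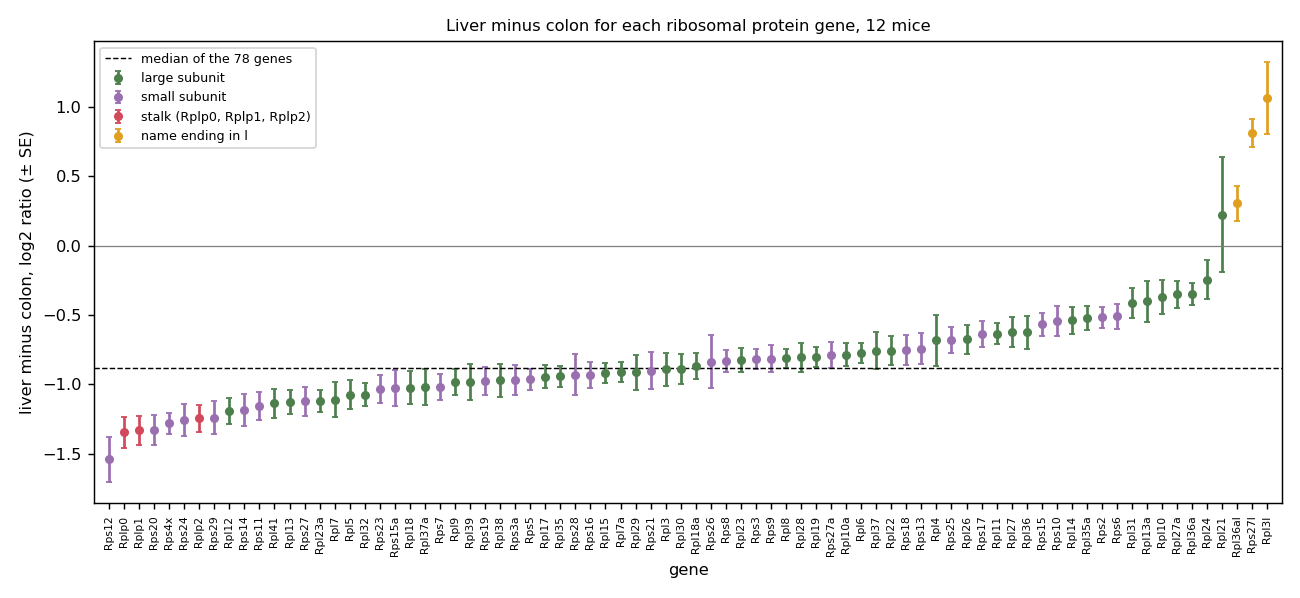
Liver minus colon difference of the log2 ratio (point, with bars of 1 SE from the fit) for each of the 78 ribosomal protein genes in order of size, coloured by subunit, stalk and names ending in l, with the median of the family dashed at -0.88. The 3 genes whose names end in l and Rpl21 are those above 0, and the stalk genes lie between -1.35 and -1.24.

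In the main fit, the 3 genes named as paralogs had the most positive differences of the family. Rpl21 lay above Rpl36al with Cy3 alone (0.72 against 0.59) and on the first scan day alone (0.35 against 0.32). Rps27l encodes a form of Rps27, a small subunit protein, and is known as a target of p53. Rps27 ranged from 0.16 to 1.47 in colon (median 0.73) and from -0.62 to -0.13 in liver (median -0.36), with no overlap, and differed by -1.12 (SE 0.11, adjusted p = 1.11e-09). Rps27l ranged from -1.15 to -0.24 in colon (median -0.48) and from -0.29 to 0.64 in liver (median 0.27), and differed by 0.81 (SE 0.10, adjusted p = 1.81e-07).
Rps27l was higher in the liver of 12 of 12 mice, although the ranges of the tissues overlapped slightly. The difference of Rps27l exceeded that of Rps27 in each mouse, by 1.52 to 2.47 (mean 1.94, SD 0.31, n = 12, exact sign-flip permutation test, two-sided, p = 0.000488). It was positive under every background correction and scaling tried, from 0.66 to 1.18.

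Rpl36al is an autosomal copy of the X-linked Rpl36a. Rpl36al ranged from -0.60 to 0.53 in colon (median 0.36) and from -0.01 to 0.89 in liver (median 0.50), and its difference of 0.30 (SE 0.13) had an adjusted p of 0.0661, with 10 of 12 mice higher in liver. It changed with the scaling, since it was -0.0011 with median centring and 0.59 with Cy3 alone (adjusted p = 0.00625), and it passed without HF-low-low replicate 5 (0.39, adjusted p = 0.0196). Against Rpl36a, whose colons lay between -0.19 and 0.44 (median 0.25) and livers between -0.46 and 0.08 (median -0.15), the difference was greater in 12 of 12 mice (mean 0.65, SD 0.32, exact sign-flip permutation test, two-sided, p = 0.000488).
The Rpl36a probe shown above gave -0.35, and the gene's 2 other probes gave -1.01 (SE 0.15, adjusted p = 3.70e-06) and -1.02 (SE 0.15, adjusted p = 3.26e-06). All 3 were above background on all arrays, so that the size of the Rpl36a difference depends on the probe.

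Rpl3l was higher in liver at a weak signal. Rpl3, which shapes the peptidyl transferase centre, ranged from -0.42 to 0.57 in colon (median 0.01) and from -1.22 to -0.45 in liver (median -0.78) and was lower in liver by a difference of -0.89 (SE 0.12, adjusted p = 3.39e-07). Rpl3l ranged from -4.77 to -3.53 in colon (median -3.96) and from -4.05 to -0.81 in liver (median -3.33), and differed by 1.06 (SE 0.26, adjusted p = 0.00148; exact sign-flip permutation test, two-sided, p = 0.00293). The colons were all low, and a few livers were far higher than the rest.
The probe was above background in Cy3 on 1 of 6 colon HF-low-low, 4 of 6 colon HF-low-suf, 2 of 6 liver HF-low-low and 4 of 6 liver HF-low-suf arrays. The highest liver, HF-low-suf replicate 2 (-0.81), was also the liver with the highest mean over 15 skeletal muscle genes, -2.21 against -4.56 to -3.61 in the other livers of its diet and -4.75 to -3.99 in HF-low-low. Its Mb, which encodes myoglobin, was at 0.73 and its Ckm, muscle creatine kinase, at -1.91.
The other livers with high Rpl3l were HF-low-suf replicate 4 (-1.86), HF-low-low replicate 6 (-1.99) and HF-low-suf replicate 5 (-2.25), whose mean muscle levels were -3.85, -4.00 and -3.61. Of the 15 muscle genes, 12 were higher in liver than in colon and 3 did not pass, and their part in the Rpl3l difference was not tested. Without HF-low-suf replicate 2 the Rpl3l difference was 0.89 (adjusted p = 0.00321), and within the second scan day alone it was 1.002 and did not pass (adjusted p = 0.0826). The Rpl3l difference was smaller, and passed, without background correction (0.65), with plain subtraction (0.70) and with median centring (0.61), where Rps27l was at 0.87, 0.73 and 0.66.

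**Figure D3:**
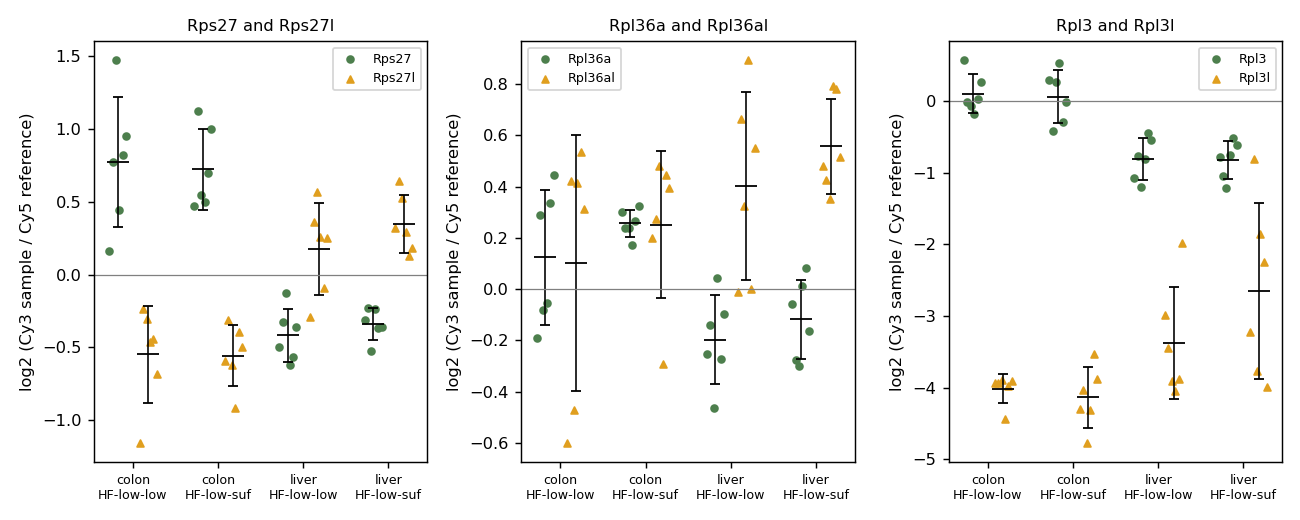
Log2 ratio of Cy3 sample to Cy5 reference for Rps27, Rpl36a and Rpl3 (circles) and for Rps27l, Rpl36al and Rpl3l (triangles) on each array, with the mean and SD (black) of the 6 arrays of each group. Rps27 falls from colon to liver while Rps27l rises, and the Rpl3l values of the livers spread from -4.05 to -0.81.

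Relative to the median of the family on each array, 20 genes were higher and 17 lower in liver at an adjusted p below 0.05. The other 41 did not pass. On the same scale 87.2% of all probes were higher and 5.5% lower. With most probes called, the adjustment does little, and the cut lies close to an unadjusted p of 0.05. The centre is the family's own median, so genes lie on both sides of it by construction. The counts describe the spread within the family. The departures downward were led by Rps12 (-0.69), Rplp0 (-0.49), Rplp1 (-0.48), Rps20 (-0.48) and Rps4x (-0.43). With the mean over all probes of a gene, Rps12 (0.0026), Rps20 (0.24) and Rps4x (0.35) were no longer below the family. Those upward were led by Rps27l (1.67) and Rpl3l (1.91), whose order turned with the background correction and scaling and of which Rpl3l was below background on 13 of 24 arrays, followed by Rpl36al (1.16), Rpl21 (1.07) and Rpl24 (0.61). The Rpl21 value comes from the probe that gave no usable comparison, and the gene's other probe was lower in liver. With Cy3 alone, 9 genes were higher than the family and not 20.

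The second and further probes of the genes bore on how far a single probe speaks for its gene. Of 51 such probes 32 were above background on all arrays, and 29 of them were lower in liver, none higher, with a median of -0.77. The 3 that did not pass were 1 probe each of Rpl23 (0.08, SE 0.09), Rps19 (-0.28, SE 0.22) and Rpl24. The remaining 19 probes, which were below background on at least 1 array, had a median of -0.06, and 3 of them were lower in liver. No gene had probes that passed in opposite directions.

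Genes that work with the ribosome moved in part with the family. Among 7 ribosomal proteins with other names, 6 were lower in liver, among them Gnb2l1, the scaffold protein RACK1 (-1.39, SE 0.08), and Fau, the precursor of S30 (-0.80, SE 0.11), and Rpl7l1 was higher (0.61, SE 0.08). Of 14 other transcripts known to begin with a terminal oligopyrimidine tract, 12 were lower and none higher, with a median of -0.60, led by Hnrpa1 (-1.12), Pabpc1, the poly(A)-binding protein (-1.08), and Ybx1 (-1.07). The elongation factor genes of that list followed, with Eef1b2 at -1.06, Eef1g at -0.91, Eef2 at -0.64 and Eef1a1 at -0.56.
Genes that build the ribosome or signal to it were called in both directions, where 19% of all probes were lower and 19.4% higher. Of 27 ribosome biogenesis genes 5 were lower in liver, led by Myc (-0.85) and Ubtf (-0.67), a factor of RNA polymerase I, 7 were higher, led by Wdr12 (1.31) and Gnl3 (1.01), and 15 did not pass, with a median of 0.11. Of 13 genes of mTOR signalling and Larp1, 1 was lower (Gbl, -0.76) and 6 higher, led by the translation repressor Eif4ebp3 (0.87) and the cap-binding protein Eif4e (0.62), with Larp1 at 0.29 (adjusted p = 0.0142).

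Other cells differ between the tissues as well, beside 19% of all probes lower and 19.4% higher in liver. Of 21 proliferation genes 18 were lower in liver, with a median of -1.27 (Mki67 -2.77, Mcm6 -2.62), 10 of 10 smooth muscle and 8 of 8 adipose genes were lower, and of 10 pancreatic acinar genes 6 were higher and 2 lower. Of 9 B cell and plasma cell genes 3 were higher and 2 lower. The mean of the proliferation list was between -1.03 and -0.14 on the colon arrays and between -2.55 and -1.14 on the liver arrays. The proliferation, smooth muscle and adipose genes were lower in liver, as most ribosomal protein genes were, while the acinar and B cell lists had medians of 0.56 and 0.05. The part of any of these cells in the family's difference was not tested.

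**Figure D4:**
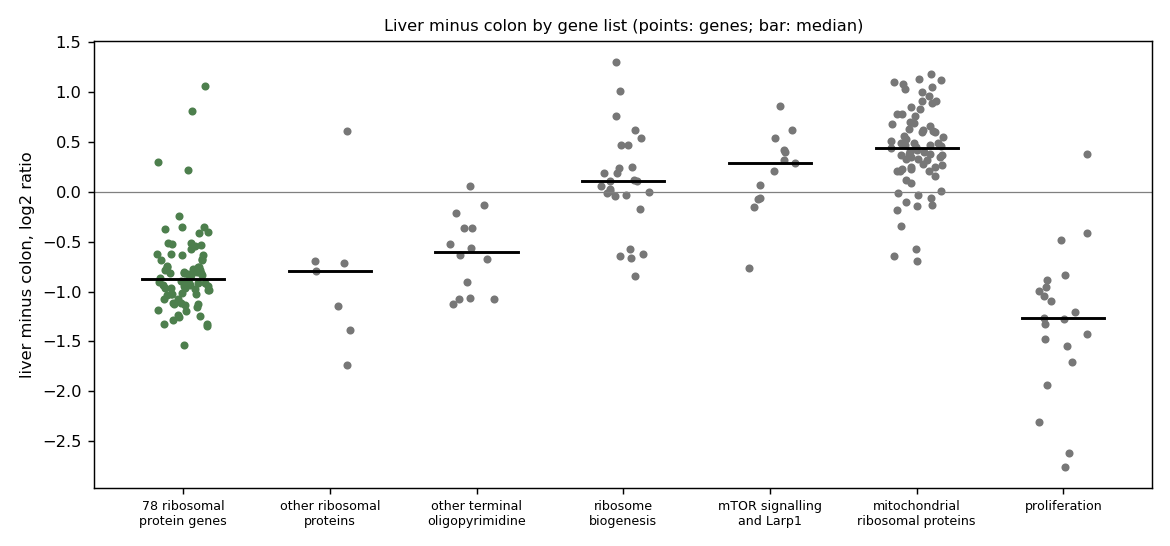
Liver minus colon difference of the log2 ratio for each gene (points, 1 probe per gene) of the ribosomal protein family and of 6 other lists, with the median of each list as a bar. The medians are -0.88 for the 78 ribosomal protein genes, -0.60 for other terminal oligopyrimidine transcripts, 0.11 for ribosome biogenesis and 0.44 for mitochondrial ribosomal proteins.

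The second question was whether the sufficient diet after weaning changed these transcripts. Differences are HF-low-suf minus HF-low-low, in the direction that the dyes in the labels give, which is opposite to the signs of most of the probes in the study's own tables. In colon, 0 of the 78 genes met the study's criteria, P under 0.01 before adjustment together with a change of over 1.5-fold, which 0.168% of all probes did, and 0 reached an unadjusted p below 0.05 in limma, where 2.98% of all probes did. After Benjamini-Hochberg adjustment no probe of the array passed in either tissue. The median of the family was 0.02, with 41 genes higher in HF-low-suf (52.6%, against 48.3% of all probes) and 37 lower. With Cy3 alone 16 genes were higher, and with median centring 72.

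The largest differences in colon were within the spread of the mice. Rpl21 (0.32, SE 0.55), Rps26 (0.31, SE 0.35) and Rpl37 (0.22, SE 0.25) were highest in HF-low-suf, and Rpl35a (-0.22, SE 0.16), Rps14 (-0.19, SE 0.20) and Rpl9 (-0.19, SE 0.17) lowest. Rps26, which contacts mRNA near the exit channel, ranged from -1.30 to 1.22 in HF-low-low (median 0.20) and from -0.33 to 0.57 in HF-low-suf (median 0.37), with the groups overlapping. Rpl35a ranged from 0.12 to 1.14 (median 0.55) and from 0.18 to 0.66 (median 0.38), and its unadjusted p of 0.195 was the smallest of the family (exact permutation test, two-sided, p = 0.197). Without colon HF-low-low replicate 1, 21 genes were higher in HF-low-suf in place of 41.

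In liver, 76 of the 78 genes were higher in HF-low-suf and 2 lower (Rpl21 and Rpl3), where 51.4% of all probes and 66.3% of the 1226 bright probes of other genes were higher. Some other lists lay on the same side between these livers, with 8 of 8 adipose genes higher in HF-low-suf (median 0.76), 15 of 15 skeletal muscle genes (0.44), 9 of 10 smooth muscle genes (0.21), 71 of 75 mitochondrial ribosomal protein genes (0.10), 11 of 12 colon epithelial genes, 9 of 10 pancreatic acinar genes, 13 of 14 other terminal oligopyrimidine transcripts and 7 of 7 ribosomal proteins with other names, while 5 of 12 hepatocyte, 6 of 13 mTOR and 4 of 9 B cell genes were higher. Single livers stood apart, with a mean over the adipose genes of -1.33 to 2.52 in HF-low-suf against -1.51 to -0.57 in HF-low-low. Without HF-low-suf replicates 1 and 2, 71 ribosomal protein genes were higher, with a median of 0.10. The part of other cells in the family's shift was not tested. The median of the family was 0.14, against 0.01 for all probes and 0.05 for the bright ones. None of the 78 met the study's criteria, which 0.117% of all probes did, and none had an unadjusted p below 0.05, as 2.13% of all probes did. The genes share arrays and move together on them, so the number on one side is a description of these 12 livers. The median of the family was between -0.74 and -0.42 in the 6 HF-low-low livers (median -0.60) and between -0.56 and -0.34 in the 6 HF-low-suf livers (median -0.42), and the groups overlapped.

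Rpl37, a zinc-binding protein of the large subunit, came closest in liver. It ranged from -0.65 to -0.12 in HF-low-low (median -0.24) and from -0.26 to 0.05 in HF-low-suf (median 0.01), a difference of 0.26 (SE 0.12, unadjusted p = 0.0529 in limma; exact permutation test, two-sided, p = 0.0195, not adjusted). Most HF-low-suf livers lay above the HF-low-low median, with overlap.
Rpl13a ranged from -0.74 to 0.15 (median -0.31) and from -0.19 to 0.23 (median -0.02), a difference of 0.30 (SE 0.16; exact permutation test, two-sided, p = 0.0931). Rpl3l, the only gene whose difference exceeded 1.5-fold, ranged from -4.05 to -1.99 (median -3.66) and from -3.99 to -0.81 (median -2.74), a difference of 0.73 (SE 0.51; exact permutation test, two-sided, p = 0.253), and it was below background on 13 of the 24 arrays of the study. The least positive were Rpl21 (-0.06, SE 0.65), Rpl3 (-0.01, SE 0.17) and Rps3a (0.00, SE 0.17).

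The diet difference in liver minus that in colon was positive for 71 of the 78 genes, with a median of 0.13 against 0.03 for all probes, of which 54.9% were positive, as were 63.3% of the bright probes of other genes. None of them had an unadjusted p below 0.05, as 6.43% of all probes did, and no probe passed after adjustment.

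**Figure D5:**
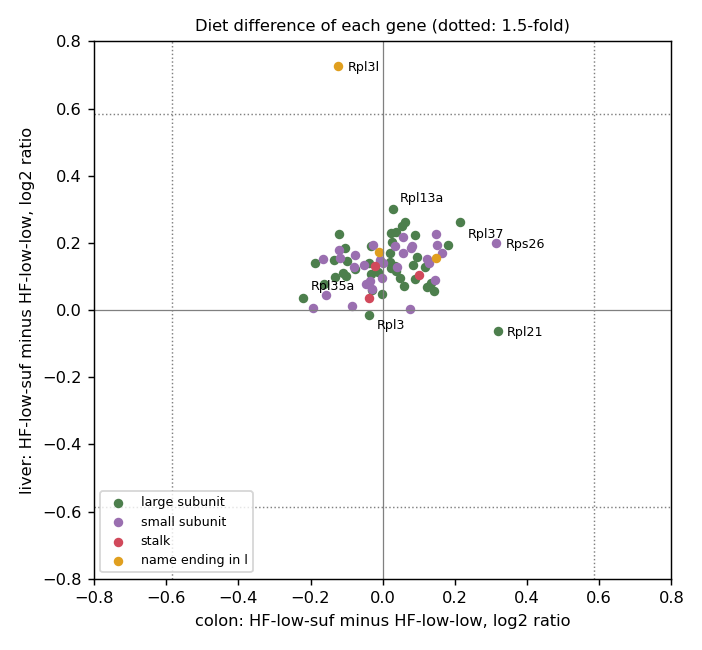
Difference of the log2 ratio between HF-low-suf and HF-low-low in colon (horizontal) and in liver (vertical) for each of the 78 ribosomal protein genes, with the 1.5-fold limits dotted. All genes lie within the limits in colon, Rpl3l lies beyond it in liver (0.73), and 76 of the genes are above 0 in liver and 41 in colon.

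The spread within groups was small for most of the family. The pooled SD of a gene within its 4 groups had a median of 0.27 and a lowest value of 0.12. After Rpl21, the genes with the largest spread among those above background on all arrays were Rps26 (0.58) and Rpl4 (0.50). Rpl4, a protein that lines the exit tunnel, ranged from -0.48 to 0.86 in colon (median 0.29) and from -1.76 to 0.24 in liver (median -0.30) and was lower in liver by a difference of -0.68 (SE 0.18, adjusted p = 0.00321), with 10 of 12 mice in that direction. On the second scan day alone Rpl4 did not pass (-0.25, adjusted p = 0.49), nor with Cy3 alone (adjusted p = 0.0872). Rps26 was lower in liver by a difference of -0.84 (SE 0.19, adjusted p = 0.000836), in 11 of 12 mice.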

How the data were processed

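Colon and liver RNA of 12 mice was measured on 24 two-colour Agilent arrays. Intensity values, as deposited by the authors in 1 file per array, are the mean signal and the median local background of every spot in both dyes, quantified by Feature Extraction 9.5 and not normalized between dyes, and the processed intensity of that software was used in alternatives. Flags for outliers, signal above background, saturation and low-gain scaling came from the same deposited files, and the ratio columns were not used. Per the labels, limma was among the authors' tools.

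Here signals were background corrected (normexp, offset 50) and loess normalized within arrays in limma 3.58.1 (R 4.3.3). Of 45018 spots the 1639 controls were dropped, as were outlier-flagged ones among the other 43379, before averaging the spots of a probe. Tissues were compared with lmFit and eBayes over 24 arrays, the mouse being a random block (statmod 1.5.0, consensus correlation 0.158), and diets on the 12 arrays of a tissue. P-values were adjusted over all 41174 probes (Benjamini-Hochberg) and called at 0.05 for tissues. A colon and a liver of a diet with the same number come from the same mouse, and their deviations from the group means correlated at 0.01 to 0.28 in HF-low-low and -0.03 to 0.25 in HF-low-suf. Exact tests used 4096 sign flips of the 12 within-mouse differences or the 924 splits of 12 mice. The scripts were tested on simulated data.

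Replicates of a group correlated at 0.655 to 0.938, and at most 0.00692% of their Cy3 signals were identical. Slides and replicate numbers coincide, with 1 array of each group on each of 6 slides, and 3 slides were scanned on each of 2 days. Each group has 6 arrays, and p-values describe the spread between these mice.

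Of the 78 main probes 73 had an accession found in RefSeq (GRCm38.p6), 72 under the same symbol (Rps3a is now Rps3a1). The members and the gene lists were chosen with earlier results of these data known. Members named are the 8 most and 8 least negative tissue differences among genes above background on at least 12 arrays, the 3 largest diet differences each way in a tissue, the paralogs with their parents, the stalk genes and the 3 largest spreads within groups, and for other lists the largest called differences. The lists were ribosomal proteins named otherwise, other terminal oligopyrimidine transcripts, ribosome biogenesis, mTOR signalling with Larp1, hepatocyte, colon epithelium, smooth muscle, skeletal muscle, adipose, pancreatic acinar, B cell and plasma cell, and proliferation. Mitochondrial ribosomal proteins, and 2 alternatives (probes never scaled up, and a mouse with high muscle genes left out), were chosen after the values were seen. Alternatives covered background correction, dye normalization, spot and probe filters, the mouse or slide as a block, scan day, and leaving out arrays or mice.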

Additional observations from a re-analysis of the deposited data

Results flagged for a closer look

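The 26 named genes and the median of the family were each taken in 4 groups, which gave 108 groups of 6 arrays. In these, 10 values lay further from the rest of their group than Dixon's critical value for 6 samples allows. Chance alone flags about 1 group in 20, a rate that does not hold for genes named for their spread (Rpl21, Rps26 and Rpl4, with 3 of the 10). Colon HF-low-low replicate 1 was the lowest of its group for 3 genes, Rpl13a (-1.21 against 0.40 to 0.68), Rpl24 (-0.71 against 0.40 to 0.96) and Rps29 (0.11 against 0.76 to 1.14). Colon HF-low-suf replicate 2 was the highest of its group for Rps29 (1.51 against 0.40 to 0.76) and the lowest for Rps26 (-0.33 against 0.29 to 0.57). Colon HF-low-suf replicate 4 was the lowest for Rpl36al (-0.29 against 0.20 to 0.48), and colon HF-low-low replicate 4 the lowest for Rpl3l (-4.43 against -3.98 to -3.90), a probe near background there. In liver, HF-low-low replicate 3 was the lowest for Rpl21 (-2.57, with the others at 0.43 or above), HF-low-low replicate 1 the lowest for Rpl4 (-1.76 against -0.56 to 0.10), and HF-low-suf replicate 1 the highest for Rplp2 (-0.45 against -0.92 to -0.76).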

How the results depend on the processing

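Over the alternatives other than leaving out single mice, 59 to 74 genes were lower and 1 to 3 higher in liver, apart from the alternative limited to probes never scaled up in Cy3, which kept 7 genes and called 5 lower and 1 higher, with a median of -0.41. The median of the family moved by more than 1 SD between the mice with Cy3 alone (-0.59) and with median centring (-1.06), and 1 gene was higher in liver on the second scan day alone. Relative to the family, 9 genes were higher with Cy3 alone, 10 lower on the first scan day alone, and 1 higher and 1 lower among probes never scaled up. With the mean over all probes of a gene, the departures of Rpl36a (-0.0655), Rps12 (0.0026), Rps20 (0.24), Rps24 (0.22) and Rps4x (0.35) changed sign. In colon, 16 genes were higher in HF-low-suf with Cy3 alone, where all probes had a median of 0.12, and 72 with median centring. The cause was not tested. No diet call or interaction call was made under any alternative.

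Leaving out 1 mouse or array at a time gave 71 to 74 genes lower and 2 to 3 higher in liver (median -0.89 to -0.84), and 18 to 21 higher and 16 to 20 lower than the family. It gave 21 to 53 genes higher in HF-low-suf in colon (median -0.08 to 0.04), 69 to 78 in liver (0.11 to 0.17), and 60 to 73 positive interactions (0.08 to 0.20).

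With the mouse as a fixed term (replicate block) 73 genes were lower and 2 higher in liver, and without a replicate block 72 and 2; 19 and 17 departed from the family with the fixed term. For the diets the replicate number stands for the slide, and same-numbered arrays of the 2 diets correlated at -0.09 to 0.24 in colon and -0.50 to 0.53 in liver, so they were not taken as pairs. The replicate block there left 0 calls in both tissues and 41 and 76 genes higher in HF-low-suf, and the block changed no other call.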

Other observations

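The mitochondrial ribosomal proteins, which translate the few proteins encoded by mitochondrial DNA, went the other way from the cytosolic family. Of 75 genes found by name, a list chosen after the values were seen, 56 were higher in liver than in colon, 4 lower and 15 not called, where 19.4% of all probes were higher and 19% lower, with a median of 0.44. The largest were Mrps10 (1.18, SE 0.08), Mrpl15 (1.13, SE 0.14) and Mrpl53 (1.12, SE 0.11), and the genes lower in liver were Mrps6 (-0.70, SE 0.08), Mrps25 (-0.64, SE 0.11), Mrps36 (-0.57, SE 0.09) and Mrps9 (-0.34, SE 0.09). Between the diets none of them passed the study's threshold in either tissue, as 0.168% of all probes did in colon and 0.117% in liver, and 71 of the 75 were higher in HF-low-suf in liver (median 0.10) and 36 in colon.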
